A study of Mus musculus with 35 samples.

Results

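The regions described here are stretches of the mouse genome that carried the histone mark H3K27ac in haematopoietic stem and progenitor cells (HSPC) of 3 genotypes and had no peak of it in a further genotype. H3K27ac peaks of 10 libraries were merged where they touched or overlapped, which gave 48381 regions. Regions were kept where each of the 6 wild-type (WT), Npm1c and Flt3-ITD HSPC libraries had a peak and neither of the 2 libraries labelled DM had one. That left 1023 regions of the 13383 that had a peak in all 6 libraries (7.64%), and they are called the DM-silent regions below. The name means only that no H3K27ac peak was called in DM. The other marks often stayed there, and transcription was not looked at. H3K27ac itself chose them, so its absence in DM is the definition and not a result.

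The study profiled bone marrow cells flushed from the femur and tibia of C57BL/6 mice. Lineage-negative HSPC, left after a kit had removed cells carrying markers of mature blood lineages, came from WT mice, from mice with Npm1c (the cytoplasmic mutant form of the nucleolar protein nucleophosmin found in acute myeloid leukaemia), from mice with Flt3-ITD (an activating internal tandem duplication in the cytokine receptor FLT3), and from mice labelled DM. The labels do not spell out DM, which is read here as the double mutant carrying both alleles. Neutrophils came from WT mice through a neutrophil isolation kit. Each of the 5 groups gave 2 biological replicates for each of 3 histone marks, H3K27ac, H3K4me1 and H3K4me3, in 30 libraries. The labels state no age, no sex, no driver of any recombinase and no source of the replicates beyond calling them biological, so p-values measure the spread between these libraries.

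H3K27ac marks active enhancers and promoters. H3K4me1 lies at enhancers whether or not they are active and at the flanks of promoters, and H3K4me3 is strongest at the start sites of active or poised genes. In bone marrow, progenitors pass from multipotent cells to erythroid, megakaryocytic and granulocyte-monocyte fates. The erythroid fate is governed by the zinc-finger factor GATA1 with its cofactor FOG1 (Zfpm1) and partners TAL1, LMO2 and LDB1, which bind AGATAA-type sites near genes of haemoglobin synthesis and the red cell membrane.

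A set of 6 promoters comes from the gene list in which DM-silent regions were most frequent. All 6 belong to genes of an erythroid list, have their start site in a DM-silent region, and hold the GATA motif AGATAA, or TTATCT on the other strand, in the 250 bases before the start site. They were picked from 14 such erythroid start sites because they hold that motif. The runs below are those 250 bases, 5′ to 3′ on the gene's own strand, from RefSeq on GRCm38.p6, with the motif in capitals. All of the run lay inside the region at Epb42, Epor and Rhd, and part of it did at Kel, Sox6 and Trim10. The motif itself lay outside the region at Kel and Trim10.
Epor, the erythropoietin receptor, chr9:21963577-21963826, minus strand: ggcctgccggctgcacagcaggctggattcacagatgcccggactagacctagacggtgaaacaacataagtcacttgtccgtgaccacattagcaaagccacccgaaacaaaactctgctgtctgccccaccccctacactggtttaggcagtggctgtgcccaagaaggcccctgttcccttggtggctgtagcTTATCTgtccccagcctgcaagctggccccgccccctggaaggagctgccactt
Kel, the Kell blood group membrane protein, chr6:41704326-41704575, minus strand: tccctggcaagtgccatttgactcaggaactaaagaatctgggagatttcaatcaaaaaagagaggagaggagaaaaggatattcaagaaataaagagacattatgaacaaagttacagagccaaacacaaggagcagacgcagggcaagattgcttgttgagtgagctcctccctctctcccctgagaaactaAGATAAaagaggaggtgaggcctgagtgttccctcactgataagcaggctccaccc
Rhd, the Rh blood group antigen, chr4:134864286-134864535, plus strand: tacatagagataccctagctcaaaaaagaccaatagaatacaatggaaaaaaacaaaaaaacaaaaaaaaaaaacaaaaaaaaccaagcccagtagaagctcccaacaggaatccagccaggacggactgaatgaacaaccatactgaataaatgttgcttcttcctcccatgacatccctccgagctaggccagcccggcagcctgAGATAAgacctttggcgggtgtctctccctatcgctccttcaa
Epb42, a red cell membrane skeleton protein, chr2:121036878-121037127, minus strand: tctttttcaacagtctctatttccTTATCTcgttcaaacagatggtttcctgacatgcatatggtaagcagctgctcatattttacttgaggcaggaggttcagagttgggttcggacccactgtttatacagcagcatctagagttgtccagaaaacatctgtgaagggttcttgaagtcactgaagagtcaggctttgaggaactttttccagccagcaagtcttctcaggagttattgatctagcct
Sox6, a transcription factor of late erythroid maturation, chr7:115846141-115846390, minus strand: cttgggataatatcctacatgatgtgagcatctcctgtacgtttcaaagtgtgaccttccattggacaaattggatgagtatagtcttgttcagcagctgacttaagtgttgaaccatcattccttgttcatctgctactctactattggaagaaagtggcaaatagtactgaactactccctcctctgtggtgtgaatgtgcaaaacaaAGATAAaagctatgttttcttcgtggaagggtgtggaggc
Trim10, a RING-finger protein of erythroid cells, chr17:36869324-36869573, plus strand: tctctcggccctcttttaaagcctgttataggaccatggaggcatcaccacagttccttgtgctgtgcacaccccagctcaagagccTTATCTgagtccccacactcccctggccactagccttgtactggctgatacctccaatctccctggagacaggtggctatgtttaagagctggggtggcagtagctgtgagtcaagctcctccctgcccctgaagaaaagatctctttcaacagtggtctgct
The motif begins 54 bases before the start site at Epor, 56 at Kel, 43 at Rhd, 40 at Sox6, 163 at Trim10 and 226 at Epb42.

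The motif was searched in 300-base promoters, 250 bases before to 50 after each start site, on both strands. AGATAA was in 20 of the 106 promoters whose start site lies in a DM-silent region (18.9%), in 5.15% of the 8149 whose start site lies in a region acetylated in all 8 HSPC libraries, and in 9.65% of all 21263. The base composition of the sets differed too, with a median GC content of 55.7% in the DM-silent promoters, 62.0% in those acetylated in all 8 and 56.3% in all, and a median of 9, 23 and 13 CpG dinucleotides. The part of composition in the motif shares was not tested. The PU.1 motif GAGGAAGT was in none of the 106, in 3.14% of those acetylated in all 8 and in 3.13% of all promoters. In the same order, the RUNX motif TGTGGT was in 17.0%, 11.3% and 15.0% and the KLF1 motif CCACACCC in 3.77%, 3.57% and 3.63%. The octamer ATTTGCAT was in 1.89%, 1.15% and 1.66%. The 106 promoters belong to 95 genes, and overlapping windows of the same gene are counted separately. These shares describe letters in a window and were not tested.

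The H3K27ac libraries held 21704 to 30143 peaks covering 13.5 to 23.9 Mb, with the fewest bases in DM replicate 2. H3K4me1 libraries held 102907 to 131179 peaks and H3K4me3 libraries 30295 to 39307, all of 1000 bases. The files give intervals with no heights or read counts, so depth is unknown, and a lost peak can be a mark that fell just under the caller's threshold. The neutrophil label was checked against markers: 23 of 24 mature neutrophil genes had an H3K27ac peak within 10 kb of the gene in both neutrophil libraries, against 7 to 11 in the HSPC libraries. Of 30 stem and progenitor genes, 17 to 26 had a peak in the HSPC libraries and 13 in each neutrophil library.

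The DM-silent regions were 276 to 5377 bases wide, with a median of 1191, beside 1452 for the 11576 regions acetylated in all 8 HSPC libraries. The median of H3K27ac-covered bases per region was 702 and 691 in the WT libraries, 1123 and 863 in Npm1c and 358 and 568 in Flt3-ITD. Npm1c was widest and Flt3-ITD replicate 1 narrowest, and the narrowest of the 6 peaks was in Flt3-ITD replicate 1 at 701 regions. In the regions acetylated in all 8 libraries the same medians ran from 905 to 1270 bases in the WT, Npm1c and Flt3-ITD libraries, 1085 and 841 in DM, and 762 and 763 in neutrophils.

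Just outside the rule lay 784 regions with a peak in 1 of the 2 DM libraries, 738 in replicate 1 and 46 in replicate 2. The single DM peak there had a median width of 371 bases, and these regions were narrower than the DM-silent ones, with a median of 913 bases. A further 1018 regions lacked DM peaks and missed 1 of the 6 other libraries, which was Flt3-ITD replicate 1 at 804. The narrowest of the 6 peaks inside the rule had a median of 315 bases and a minimum of 200. Without Flt3-ITD replicate 1 the rule would keep 1827 regions, and without DM replicate 1, 1761.

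Most DM-silent regions held no start site of the promoter table used here. Of the 1023, 93 (9.09%) held a RefSeq start site, against 6480 (56.0%) of the regions acetylated in all 8 libraries and 123 (15.7%) of those with a peak in 1 DM library. The promoter table lacks part of the genes, among them the nearest gene of 212 of the 1023 regions. A region just off a start site, as at Gata1 (70 bases), counts as holding none. The true shares may thus be higher, here and in the later splits by start site. DM-silent regions lay within the span of a protein-coding gene in 703 cases (68.7%) and over 50 kb from any such gene in 57. The nearest genes numbered 847 of the 9290 nearest to any region acetylated in the 6 libraries (9.12%). Of these 847 genes, 707 had 1 DM-silent region, 111 had 2 and 29 had 3 or more. For 240 of them every region acetylated in the 6 libraries was DM-silent.

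Among the nearest genes listed in the promoter table, most kept an acetylated start site. Of 671 with a start site in the table, 397 (59.2%) had it in a region acetylated in all 8 HSPC libraries. For 91 it lay in a DM-silent region and for 192 in neither. A gene with several start sites can count both as acetylated in all 8 and as DM-silent. The erythroid list differed in its counts: of 22 such genes, 14 had the start site in a DM-silent region, 3 (13.6%) in a region acetylated in all 8 and 5 in neither. Other genes were nearest to a region acetylated in the 6 libraries but to no DM-silent one. Of 6905 such genes with a start site in the promoter table, 84.9% had it in a region acetylated in all 8.

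Of the gene lists, the erythroid one had the highest share of DM-silent regions. Of 74 regions nearest to the 43 erythroid genes with any region acetylated in the 6 libraries, 42 (56.8%) were DM-silent, 3 kept a peak in 1 DM library and 29 kept both. The 42 regions belonged to 29 genes, so most of the 1023 regions and of the 847 nearest genes lay outside this list. For 19 of these genes, no nearest region acetylated in the 6 libraries kept a DM peak. Among them were the regulators Gata1 and Gfi1b, the receptors Epor and Tfr2, the globin gene Hbb-bt, the carbonic anhydrase Car1 and the water channel Aqp1. Others were Slc4a1, Rhag, Rhd, Epb42, Ermap, Kel, Trim10, Add2, Mfsd2b and Cd59a, most of which encode red cell membrane proteins. Some DM acetylation remained nearby. A DM peak in another region lay within 10 kb of Epor, Epb42 and Ermap in both DM libraries. Tfr2 and Hbb-bt had such a peak in DM replicate 1 only. The lists and the regions were chosen on these libraries, so the shares describe them and no test was made.

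Other erythroid genes kept their regions. Klf1, the erythroid Krüppel-like factor, kept its 1 region in both DM libraries, as did Tfrc, the transferrin receptor. Nfe2 kept 3 regions, Epb41 kept 3 and Ldb1 kept 2. The haem synthesis genes Cpox, Fech and Urod had no DM-silent region. Hemgn and Icam4 kept a peak in 1 DM library. Zfpm1 lost 3 of 4 regions, Sox6 3 of 4, Bcl11a 3 of 4, Tal1 2 of 4 and Lmo2 2 of 5. Ank1, Blvrb, Car2, E2f2 and Sptb each lost 1 of 2.

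The counts of the other lists follow, as regions with no DM peak of all regions acetylated in the 6 libraries. They were 5 of 11 (45.5%) for eosinophil, basophil and mast cell genes, 8 of 23 (34.8%) for megakaryocyte genes, and 5 of 17 (29.4%) for primary granule and granulocyte-monocyte progenitor genes. They were 7 of 46 (15.2%) for stem and progenitor genes, 2 of 7 for B-lymphoid genes and 1 of 8 for T and NK cell genes. Genes of JAK-STAT and MAPK feedback had 2 of 42 (4.76%), tumour suppressor and leukaemia-associated genes 4 of 94 (4.26%) and housekeeping genes 1 of 27 (3.7%). No region of the HOX list (0 of 9), the mature neutrophil list (0 of 4) or the monocyte, macrophage and dendritic cell list (0 of 18) was DM-silent. Some genes stand on 2 lists, among them Gata1, Gata2, Gfi1b, Zfpm1, Lmo2 and Kit.

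**Figure D1:**
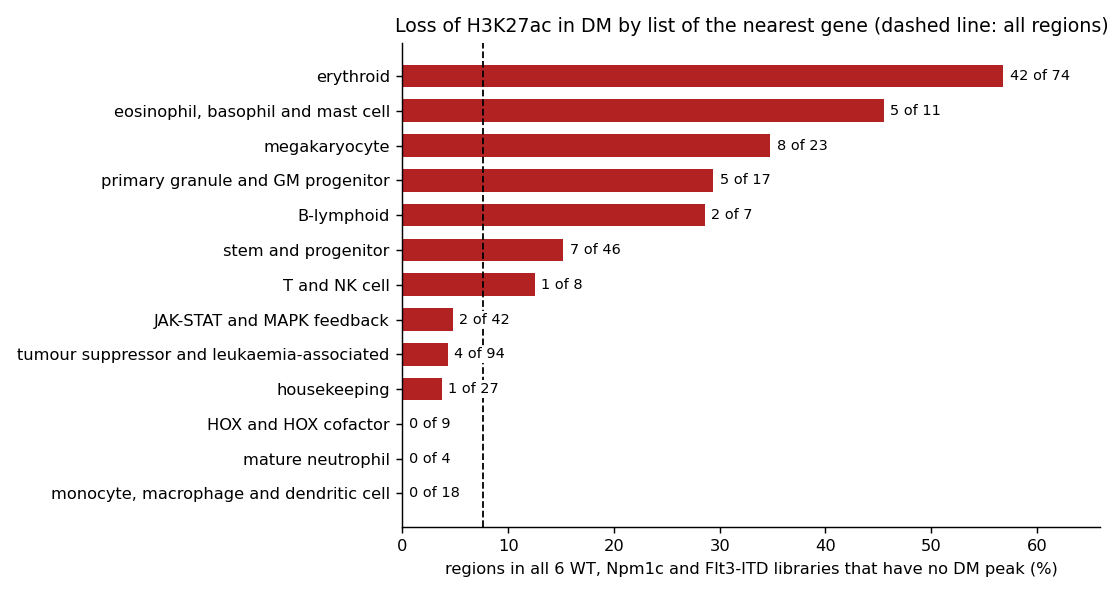
Share of regions acetylated in all 6 WT, Npm1c and Flt3-ITD libraries that had no DM peak, by the list of the nearest gene (x axis, percent), with counts beside the bars and a dashed line at the 7.64% of all such regions. The erythroid bar reaches 56.8%, and the HOX, mature neutrophil and monocyte bars are at 0.

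These are bulk libraries, in which fewer cells of a type and less mark per cell cannot be told apart. Over the whole erythroid list, 44 and 46 of 48 genes had an H3K27ac peak within 10 kb in the WT libraries, 44 and 43 in Npm1c, 42 and 43 in Flt3-ITD, 29 and 27 in DM, and 24 and 23 in neutrophils. The summed acetylated length near them was 164 and 162 kb in WT, 267 and 191 in Npm1c, 99.5 and 138 in Flt3-ITD, 51.4 and 34.5 in DM, and 37.8 and 37.4 in neutrophils. Gata1, Gfi1b, Alas2 and Slc4a1 were among the genes with no peak in either DM library. Alas2 also had none in Npm1c replicate 2 and in both Flt3-ITD libraries, and Slc4a1 none in Flt3-ITD replicate 1. Near monocyte, macrophage and dendritic cell genes the summed length was 23.8 and 21.9 kb in WT, 41.7 and 48.3 in Npm1c, 44.0 and 44.0 in Flt3-ITD, and 97.1 and 50.9 in DM. The part of cell composition in the DM-silent regions was not tested.

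Regulators were among the genes with the widest regions, with Car3, Aqp1 and others described further on. The region over the Zfpm1 start site, chr8:122282106-122287013, had H3K27ac over 4.68 and 4.75 kb in WT, 4.86 and 4.81 kb in Npm1c, and 2.37 and 3.43 kb in Flt3-ITD. It kept H3K4me1 in DM (2.33 and 1.59 kb, with 0.724 to 2.73 kb in the other 6 HSPC libraries) and H3K4me3 (1.85 and 1 kb in DM, 1 kb in each of the 6). The Lmo2 region chr2:103956014-103961390, in the gene of a GATA1 complex member, was acetylated over 3.72 and 3.57 kb in WT, 5.26 and 4.15 kb in Npm1c, and 2.53 and 3.14 kb in Flt3-ITD. Its H3K4me1 coverage was 1.51 and 1.52 kb in WT, 1.38 and 1.54 kb in Npm1c, 2.52 and 2.47 kb in Flt3-ITD, and 2.55 and 3.55 kb in DM. The DM libraries were the highest of the HSPC libraries there. The second Lmo2 region, chr2:103894647-103897532, lies 60.4 kb from the gene and had H3K4me3 over 1 to 2 kb in each of the 6 libraries and none in DM.

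Gfi1b, a transcriptional repressor required for erythroid and megakaryocytic cells, had 2 DM-silent regions. The start-site region, chr2:28617749-28622048, was acetylated over 3.5 and 3.68 kb in WT, 4.3 and 2.62 kb in Npm1c, and 0.613 and 2.63 kb in Flt3-ITD. It kept H3K4me1 (2 kb in each DM library) and H3K4me3 (1 and 2 kb). The downstream region, chr2:28598526-28602886, begins 19.1 kb from the start site and 6.56 kb past the gene's end. H3K27ac covered 3.49 and 3.93 kb of it in WT, 4.28 and 3.37 kb in Npm1c, and 1.94 and 2.25 kb in Flt3-ITD. H3K4me1 stayed, at 1.87 and 1.81 kb in DM and 1.68 to 1.93 kb in the other 6 HSPC libraries. H3K4me3 covered 2 and 2 kb in WT, 2 and 1 kb in Npm1c, and 1 and 2.73 kb in Flt3-ITD, and was absent in both DM and both neutrophil libraries. The 2 regions thus differed in H3K4me3, kept at the start site and missing downstream.

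**Figure D2:**
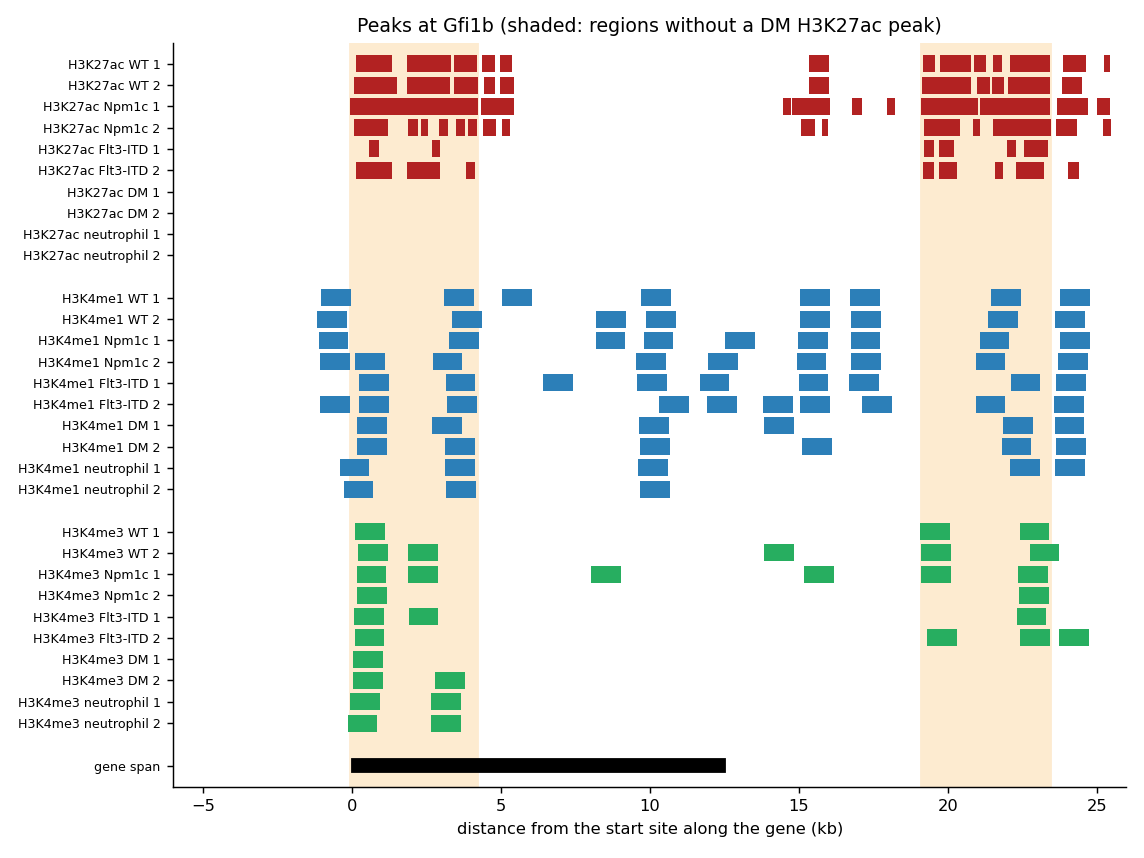
Peaks of the 3 marks at Gfi1b in each library (rows), by distance from the start site along the gene (x axis, kb); shading marks the regions without a DM H3K27ac peak and the black bar the gene span. No DM or neutrophil library has an H3K27ac peak in the window, and H3K4me3 peaks at the downstream region are present in the 6 WT, Npm1c and Flt3-ITD libraries only.

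At Gata1 itself, the master factor, the region chrX:7966184-7967840 begins 70 bases from the start site and was acetylated over 0.952 and 0.884 kb in WT, 1.66 and 0.965 kb in Npm1c, and 0.403 and 0.279 kb in Flt3-ITD. H3K4me3 covered 1 kb in each of the 8 HSPC libraries, DM included, and was absent in neutrophils. Gata2, a GATA factor of stem, progenitor and mast cells, had a region over a start site, chr6:88195992-88199972, that was broad in Npm1c (3.77 and 3.87 kb) and narrow in WT (0.635 and 0.653 kb) and Flt3-ITD (0.686 and 1.95 kb). H3K4me3 was 2 kb in each HSPC library there and 1 kb in each neutrophil library. Sox6 had a region 6.42 kb upstream of a start site, chr7:115831129-115832053, with H3K27ac over 0.304 and 0.317 kb in WT, 0.921 and 0.362 kb in Npm1c, and 0.21 and 0.362 kb in Flt3-ITD. H3K4me1 there covered 1.74 and 1.69 kb in WT, 1.73 and 1.79 kb in Npm1c, and 1.48 and 1.57 kb in Flt3-ITD. It was absent in both DM libraries and present in neutrophils over 1.55 and 1.09 kb.

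Among receptors, Epor (chr9:21962646-21963970) was acetylated over 1.18 and 0.882 kb in WT, 1.17 and 1.3 kb in Npm1c, and 0.717 and 0.823 kb in Flt3-ITD, and kept H3K4me3 in DM at 1 and 1 kb. Tfr2, a partner of the erythropoietin receptor in iron sensing (chr5:137570779-137572181), had H3K4me1 over 1.54 and 1.56 kb in WT, 2.52 and 2 kb in Npm1c, 1.91 and 1.79 kb in Flt3-ITD, and 1 and 0.9 kb in DM. Both DM values were below all 6 others. The region nearest to Kit, the stem cell factor receptor, lies 114 kb upstream of its start site (chr5:75459638-75460580), and its H3K4me1 fell from 1 to 1.55 kb in the 6 libraries to none in DM, while each neutrophil library had 1 kb.

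Membrane and transport genes of the erythroid list follow. Over the Aqp1 start site (chr6:55335955-55340574) H3K27ac covered 4.13 and 4.39 kb in WT, 4.62 and 3.91 kb in Npm1c, and 2.97 and 3.98 kb in Flt3-ITD. H3K4me1 stayed in DM at 2 and 2 kb and was absent in neutrophils. Ermap, an erythroid membrane protein (chr4:119188271-119191936), was acetylated over 3.01 and 2.75 kb in WT, 3.67 and 3.09 kb in Npm1c, and 2.27 and 2.24 kb in Flt3-ITD, and kept 1 kb of each methyl mark in DM. The Rhd start-site region (chr4:134863995-134865496) had H3K4me1 over 1.61 and 2.53 kb in WT, 2.47 and 2.35 kb in Npm1c, 1 and 0.551 kb in Flt3-ITD, and none in DM or neutrophils. Its H3K4me3 was 1 kb in each of the 8 HSPC libraries. The Epb42 start site (chr2:121036037-121037654) and the Trim10 start site (chr17:36869424-36870481) likewise lost H3K4me1 in both DM libraries, and Trim10 kept H3K4me3 at 1 kb in both.

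The carbonic anhydrase genes, which hydrate carbon dioxide, share a stretch of chromosome 3 in which each of 3 genes had a DM-silent region. The region in Car1, chr3:14804650-14808424, was acetylated over 2.25 and 1.96 kb in WT, 3.76 and 3.04 kb in Npm1c, and 0.888 and 1.31 kb in Flt3-ITD. Its H3K4me1 was 1.13 and 1.27 kb in WT, 0.876 and 0.877 kb in Npm1c, and absent in Flt3-ITD, in DM and in neutrophils. The region nearest to Car3, chr3:14876035-14881054, was acetylated over 3.8 and 3.59 kb in WT, 5.02 and 3.88 kb in Npm1c, and 1.93 and 3.37 kb in Flt3-ITD, and its H3K4me3 of 1 to 2.24 kb in the 6 libraries was absent in DM. Car2 had 2 regions acetylated in the 6 libraries, and 1 of them kept H3K27ac in both DM libraries. The DM-silent one, chr3:14911978-14912601, lies 11.2 kb from the gene. It had 1 kb of H3K4me3 in each of the 6 and none in DM or neutrophils.

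**Figure D3:**
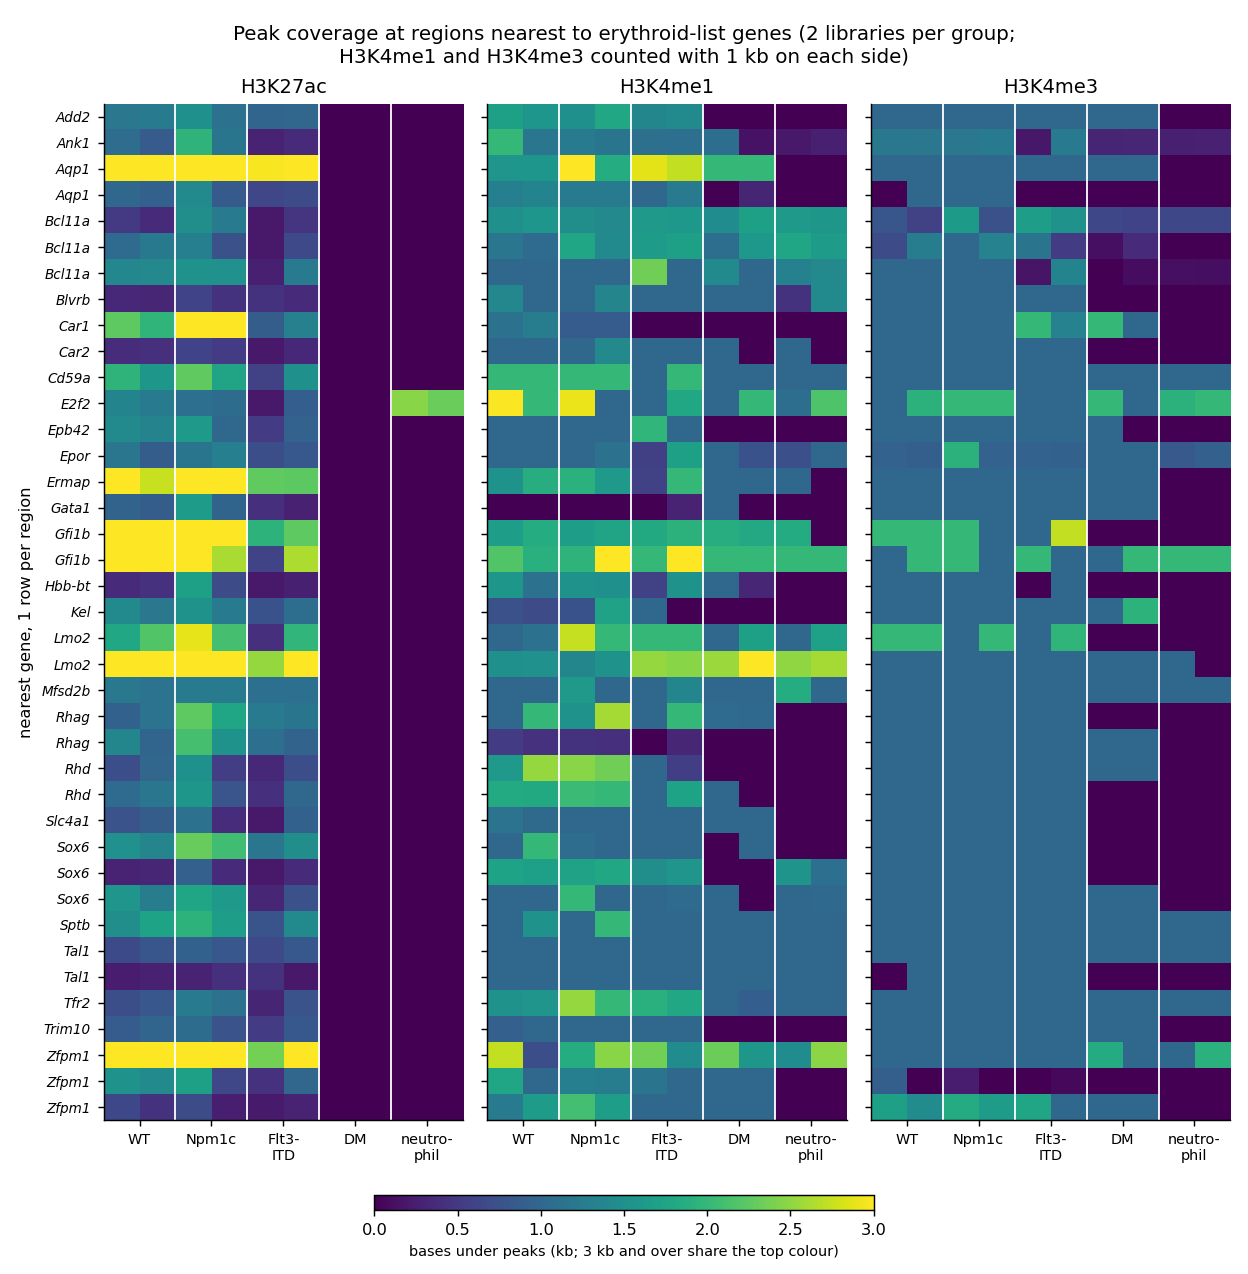
Bases under peaks (colour, kb) of H3K27ac, H3K4me1 and H3K4me3 at DM-silent regions nearest to erythroid genes (rows, a few not shown), with 2 libraries per group (columns). The DM columns are 0 for H3K27ac by the rule, while many rows keep colour in DM for H3K4me1 or H3K4me3.

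H3K4me1 and H3K4me3 were not used to choose the regions, and their peaks were compared directly. Counted with 1 kb on each side, H3K4me1 lay at 99.1% and 98.6% of the DM-silent regions in WT, 98.5% and 98.7% in Npm1c, 96.6% and 97.7% in Flt3-ITD, and 78.0% and 77.3% in DM. The 2 DM libraries were below all 6 others. H3K4me3 lay at 80.6% and 85.6% in WT, 95.0% and 80.8% in Npm1c, 71.2% and 86.9% in Flt3-ITD, and 47.8% and 50.9% in DM, again with no overlap. At the regions acetylated in all 8 libraries, H3K4me1 lay at 97.5% to 99.0% and H3K4me3 at 98.0% to 99.4% over the libraries.

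Start sites and other places differed in H3K4me3. At the 93 DM-silent regions holding a start site, H3K4me3 lay at 97.8% to 98.9% in the 6 WT, Npm1c and Flt3-ITD libraries and at 91.4% and 84.9% in DM. At the 930 without a start site it lay at 78.8% and 84.3% in WT, 94.6% and 79.0% in Npm1c, 68.5% and 85.7% in Flt3-ITD, and 43.4% and 47.5% in DM. H3K4me1 in DM lay at 84.9% and 83.9% with a start site and 77.3% and 76.7% without.

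**Figure D4:**
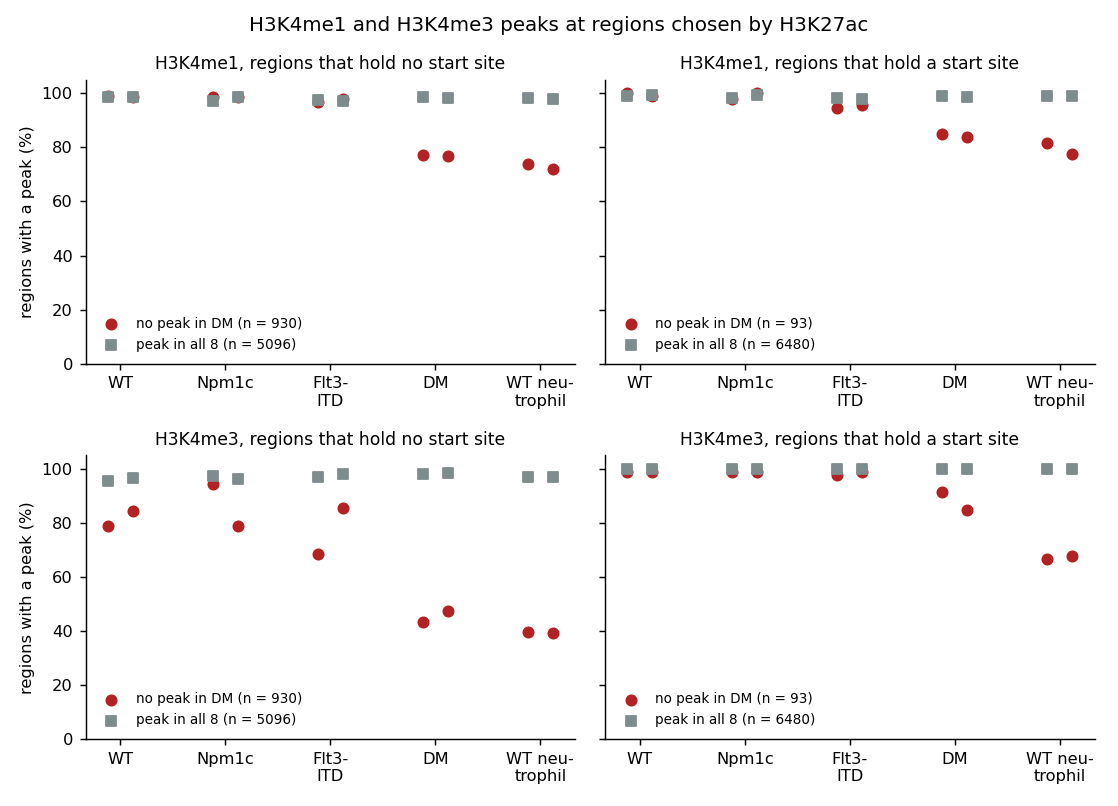
Share of DM-silent regions with an H3K4me1 or H3K4me3 peak within 1 kb (y axis, percent), by group and by whether the region holds a start site; each point is 1 library, with the regions acetylated in all 8 HSPC libraries as grey squares. At the DM-silent regions (red) H3K4me3 in DM is at 91.4% and 84.9% at start sites and at 43.4% and 47.5% elsewhere.

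The differences were tested on the log2 of covered bases plus 500 with limma over all regions that passed a filter, and p-values were adjusted by the Benjamini-Hochberg method over all of them at 0.05. On that scale, losing a lone peak of 1000 bases is a difference of -1.58. DM was set against the mean of the other 3 HSPC groups. H3K4me1 fell at 201 of the DM-silent regions and rose at 9, where 1018 of the 1023 passed the filter. Over all regions tested, 7.35% fell and 1.55% rose, and over those acetylated in all 8 libraries 2.14% fell. The median difference was -0.19 at the DM-silent regions and 0.0 over all. H3K4me3 fell at 212 and rose at 8 with 932 passing, against 4.66% falling and 5.24% rising over all regions and 0.875% falling over those acetylated in all 8. The median was -0.52, against 0.0 over all. With no filter the counts that fell were 201 and 210 of all 1023. The falls were not particular to the 1023. At the 1018 regions that lacked DM peaks and missed 1 of the 6 other libraries, H3K4me1 fell at 23.3% of those tested. H3K4me3 fell there at 19.6%, and the shares at the DM-silent regions were 19.7% and 22.7%.

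By class, H3K4me3 fell at 6 of the 93 regions with a start site and at 206 of the 930 without, while over all regions 0.873% with a start site and 5.52% without fell. H3K4me1 fell at 9 and 192, where 2.43% and 8.29% of all regions of those classes fell. Both marks fell at 61 regions, which is 30.3% of those with an H3K4me1 fall and 28.8% of those with an H3K4me3 fall. Replicates of every group had equal coverage at 8 of the H3K4me1 falls and 132 of the H3K4me3 falls, so their estimated spread was 0 and their p-values are not printed. When the spread was held to at least what 1 differing peak gives, 159 and 184 regions fell, against 4.36% and 2.33% over all.

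Several of the deepest H3K4me1 falls were at genes with more than 1 DM-silent region. Minpp1, an inositol polyphosphate phosphatase, had 4 DM-silent regions within 13.1 kb. The one at chr19:32478694-32482123 had H3K4me1 over 2.98 and 2.64 kb in WT, 2.71 and 2.71 kb in Npm1c, 2.78 and 3.65 kb in Flt3-ITD, and none in DM. By limma the log2 difference was -2.76 ± 0.32 (SE), with an adjusted p of 0.00353. The Cldn13 region chr5:134919382-134921198, near a claudin gene, had H3K4me1 over 2.65 and 2.63 kb in WT, 2.45 and 2.64 kb in Npm1c, 1.57 and 2.66 kb in Flt3-ITD, and none in DM or neutrophils. H3K4me1 differed there by -2.54 ± 0.15 (SE, adjusted p = 0.000171 by limma). Cldn13 also had 4 DM-silent regions, within 9.23 kb. At Pcx, the gene of pyruvate carboxylase, the region chr19:4558757-4560537 had H3K4me1 over 1.87 and 1.57 kb in WT, 1.57 and 1.55 kb in Npm1c, 2 and 1.88 kb in Flt3-ITD, and none in DM, a difference of -2.16 ± 0.05 (SE, limma adjusted p = 1.84e-06).

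Deep falls were also seen at other genes. At Mboat2, a lysophospholipid acyltransferase, H3K4me1 differed by -2.49 ± 0.12 (SE, limma adjusted p = 5.01e-05). Acmsd, an enzyme of tryptophan breakdown, had 2 to 2.35 kb of H3K4me1 in each of the 6 libraries and none in DM (-2.35 ± 0.05 SE, limma adjusted p = 6.93e-07). Clstn1, Myo1d, Col5a1 and Cacna1c, genes of calsyntenin, an unconventional myosin, a collagen and a calcium channel subunit, differed in H3K4me1 by -2.38, -2.38, -2.38 and -2.35. The Col5a1 call was lost when either WT or either DM library was left out and for the region alone, and the Clstn1 call for the region alone. Slc26a1, a sulfate transporter, lost both marks at its start-site region chr5:108674552-108678218, where H3K4me1 differed by -2.2 ± 0.17 and H3K4me3 by -2.08 ± 0.26 (SE, limma adjusted p = 0.000617 and 0.00493). The H3K4me3 call was lost when either DM library was left out. Its H3K4me1 was 1.44 to 2.55 kb in the 6 libraries and 0 in both DM libraries.

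Of the erythroid regions, H3K4me1 fell at 8 of 42 and rose at 1, and H3K4me3 fell at 10 and rose at 1. Over all regions tested 7.35% and 4.66% fell, and over all the DM-silent regions that passed the filter 19.7% and 22.7%, so the erythroid counts are near those of the whole set. Their median H3K4me1 difference was -0.32 and their median H3K4me3 difference -0.03. The H3K4me1 falls were at Add2 (-2.04 ± 0.05 SE, limma adjusted p = 3.19e-06), Rhd (-2.07 ± 0.18), Sox6 (-2.11 ± 0.09), Epb42 (-1.71 ± 0.18), Trim10 (-1.57 ± 0.02), the second Aqp1 region (-1.43 ± 0.18), Car1 (-1.08 ± 0.03) and Tfr2 (-0.71 ± 0.07). Those at Aqp1, Car1 and Tfr2 were not called with the spread held up, and those at Add2, Rhd and Trim10 were not called when the 1 kb on each side was left out. Their values were then -0.16, -1.03 and -1.2. The downstream Gfi1b region fell in H3K4me3 by 2.14 ± 0.34 on the log2 scale (SE, limma adjusted p = 0.0131), a call lost when either DM library was left out. The rise in H3K4me1 was at the wider Lmo2 region (0.63 ± 0.11 SE, limma adjusted p = 0.0198), lost when either WT library was left out and with the spread held up. Some genes in this and the foregoing paragraphs, such as Add2, Rhd and Epor, fall outside the rule for named genes and were chosen after their values were seen.

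Deep H3K4me3 falls were seen at other regions too, whose distance to a start site was not known in every case. The region chr17:83954694-83959205 lies 106 kb from Haao, its nearest gene, and had 2 kb of H3K4me3 in each of the 6 libraries and none in DM or neutrophils, while H3K4me1 covered 2 and 1.79 kb in DM. At Prdm16, a stem cell regulator, the region chr4:154541231-154543463 had 1 kb of H3K4me3 in both WT libraries, 2 kb in each Npm1c and Flt3-ITD library and none in DM, with 1 kb of H3K4me1 in all 8. Vwf, the von Willebrand factor gene of platelets, had 1 kb in each of the 6 and none in DM. Prkaa1, a catalytic subunit of the AMP-activated kinase, differed by -2.1 ± 0.24 (SE, limma adjusted p = 0.00326), and Car3 by -2.1 ± 0.27 (SE, limma adjusted p = 0.00488). The Car3 call was lost when either DM library was left out.

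Where H3K4me1 was present in all 6 other libraries, both DM libraries kept it at 741 of 965 regions and neither at 158 (16.4%). For H3K4me3 the counts were 441 and 190 (27.4%) of 693. At the regions acetylated in all 8, neither DM library had H3K4me1 at 8 of 11050 and H3K4me3 at 8 of 11263.

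Between a single mutant and WT few regions were called, among the DM-silent regions and over all regions alike. These comparisons set 2 libraries against 2, while DM was set against 6, so their counts and the DM counts are not on equal terms. H3K4me1 in Npm1c against WT fell at 15 DM-silent regions (1.47%) and rose at 3 (0.295%), where 1.15% of all regions changed in either direction. In Flt3-ITD it fell at 24 (2.36%) and rose at 7 (0.688%), against 2.05%. H3K4me3 fell at 3 (0.322%) and rose at 10 (1.07%) in Npm1c, against 1.78% of all regions. In Flt3-ITD it fell at 3 (0.322%) and rose at 2 (0.215%), against 3.08%. The Npm1c and Flt3-ITD counts for H3K4me1 were 0 with the spread held up, with 3 and 11 regions at an unadjusted p under 0.05. Of 1007 regions with H3K4me1 in both WT libraries, 1 had it in neither Npm1c library, 8 in neither Flt3-ITD library (0.794%), 183 in neither DM library (18.2%) and 230 in neither neutrophil library (22.8%). Of 803 with H3K4me3 in both WT libraries, the counts were 0, 3 (0.374%), 286 (35.6%) and 380 (47.3%). Counts starting from both WT libraries were not made over all regions, so these shares have no background beside them. Starting from peaks in WT also favours WT in each comparison. Car1, named above, was among the H3K4me1 losses in Flt3-ITD. All of these comparisons share the WT libraries.

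In WT neutrophils most DM-silent regions also had no H3K27ac. A peak was in both neutrophil libraries at 115 (11.2%), in 1 at 26 and in neither at 882 (86.2%). Both neutrophil libraries had one at 86.9% of the regions acetylated in all 8 HSPC libraries and at 392 of the 784 with a peak in 1 DM library. Of the 991 regions acetylated in both DM libraries and none of the 6 others, 13.7% had it in both. At the 1018 regions that lacked DM peaks and missed 1 of the 6 others, 87.3% had a peak in neither neutrophil library. H3K27ac in WT HSPC was part of the rule, so these shares carry no test. The share depends on DM replicate 1. Leaving that library out of the rule gives 1761 regions, and 494 of these have a peak in both neutrophil libraries.

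**Figure D5:**
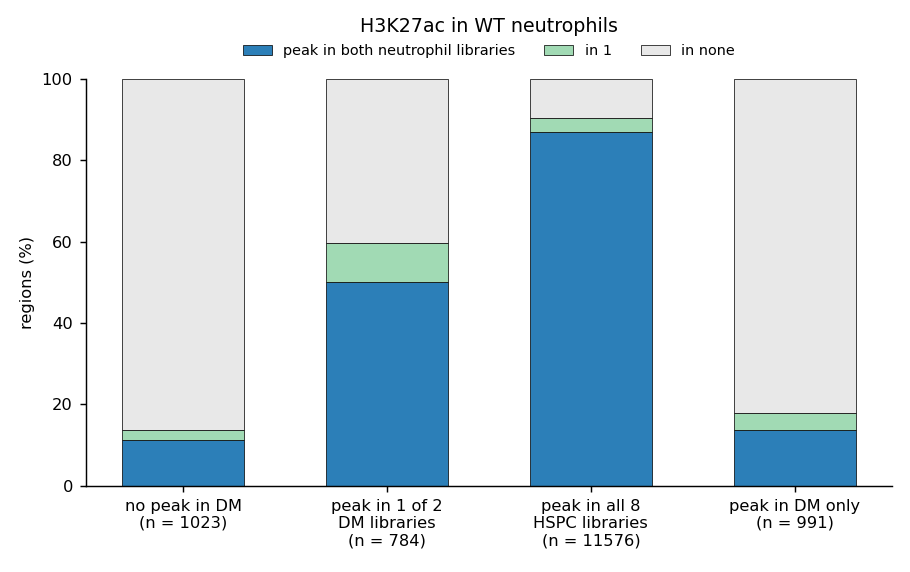
Share of regions (y axis, percent) with an H3K27ac peak in both, 1 or neither WT neutrophil library, for 4 sets of regions defined by the HSPC libraries. Both libraries have a peak at 11.2% of the DM-silent regions and at 86.9% of those acetylated in all 8 HSPC libraries.

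Among the 115 regions acetylated in both neutrophil libraries, the one nearest to Abtb1, a BTB-domain protein gene (chr6:88834401-88839002), was acetylated over 0.802 and 0.866 kb in WT HSPC, 1.24 and 1.66 kb in Npm1c, 0.272 and 0.328 kb in Flt3-ITD, and 3.86 and 4.15 kb in neutrophils. E2f2, a cell cycle factor on the erythroid list, was acetylated over 1.35 and 1.22 kb in WT HSPC and 2.47 and 2.32 kb in neutrophils, and Hdc, the histidine decarboxylase of basophils and mast cells, over 0.265 and 0.338 kb and 1.09 and 1.22 kb. In these 3 regions both neutrophil libraries exceeded both WT HSPC libraries. At the Dach1 start site (chr14:98165893-98170368) the neutrophil peaks were narrower, 2.3 and 2.23 kb against 2.97 and 3.18 kb. Arap3, Zfp652, Ankrd9 and Vps13d were also among the nearest genes of the widest such regions.

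The methyl marks were counted by neutrophil acetylation. H3K4me1 was in both neutrophil libraries at 65.9% of the 882 regions without neutrophil H3K27ac and at 96.5% of the 115 with it, and H3K4me3 at 32.1% and 93.9%. At the 1111 regions acetylated in all 8 HSPC libraries and in neither neutrophil library the shares were 96.6% and 91.2%. Against WT HSPC, H3K4me1 fell in neutrophils at 249 DM-silent regions and rose at 18 (9.82% and 3.51% of all regions), and H3K4me3 fell at 273 and rose at 14 (7.13% and 10.8%). With the spread held up these falls numbered 4 and 0, with 271 and 392 regions at an unadjusted p under 0.05. Of the H3K4me1 falls in DM, 196 were at the 882 regions without neutrophil H3K27ac and 4 at the 115 with it, and of the H3K4me3 falls 205 and 4. At the regions acetylated in all 8 HSPC libraries, H3K4me1 fell in DM at 45 of the 1111 without neutrophil H3K27ac and 196 of the 10058 with it, and H3K4me3 at 13 and 86. The difference between these splits was not tested.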

How the data were processed

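Chromatin immunoprecipitation sequencing of 3 histone marks was done in 30 libraries. The submitters' processing notes name the build mm10, the aligner Bowtie2 2.1.0, Picard, MACS2 and HOMER. The names of the deposited files pair MACS2 with H3K27ac and HOMER with the other marks, and no threshold is stated. The authors deposited 1 peak list per library, with chromosome, start and end only, so values here are covered bases (peak coverage, kb or bases) and depth is unknown.

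H3K27ac peaks that touched or overlapped were merged over 10 libraries. Coverage of H3K4me1 and H3K4me3 was counted in each region with 1 kb on each side. Log2 values (pseudocount 500 bases) of regions covered in at least 2 libraries of the mark were fitted over all 5 groups with limma 3.58.1 (R 4.3.3, trended eBayes), with Benjamini-Hochberg adjustment over all regions. Other steps used Python 3.11.15. The fits were also run on simulated coverage with random noise. In the real data the estimated spread was 0 at 17.1% of H3K4me1 and 49.6% of H3K4me3 regions. The simulation was not built with that feature, so it cannot vouch for p-values at such regions.

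Members and gene lists were chosen with earlier results of these data known. The nearest gene was taken by gene span over protein-coding genes of RefSeq GRCm38.p6, ties by start site, because the promoter table lacks part of the genes; this departs from the planned use of start sites. Genes were named from the lists (up to 6 a list, widest first), the 10 widest regions, genes with 3 or more regions, the 8 largest falls of each methyl mark and the 6 widest regions acetylated in neutrophils. Alternatives were the merging distance, covered share, window, pseudocount, filter, centring, robust variance, replicate block, a floor on the spread and each library left out. Results at a few named genes are not reported here.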

Additional observations from a re-analysis of the deposited data

How the results depend on the processing

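The counts of DM-silent regions whose H3K4me1 or H3K4me3 fell in DM stayed within 1.5 times the reported counts under every alternative run. For H3K4me1 (201 reported) they were 135 for the region alone, 253 with 3 kb on each side and 159 with a floor on the spread, an alternative chosen after seeing the data, and for H3K4me3 (212 reported) 204, 217 and 184. The regions called changed more than the counts: of the 201, 111 were called for the region alone, 163 with 3 kb and 142 with the floor, and of the 212, 177, 192 and 177. Leaving out 1 library gave 206 to 243 and 213 to 288. H3K4me1 falls in Npm1c (15 reported) were 7 for the region alone, 8 with 3 kb, 0 with the floor and 18 to 42 with 1 library left out. In Flt3-ITD (24 reported) they were 13 for the region alone, 0 with the floor and 39 to 53 with 1 library left out. The Npm1c and Flt3-ITD counts by limma with the floor had 3 and 11 regions at an unadjusted p under 0.05. Falls in neutrophils were 4 for H3K4me1 and 0 for H3K4me3 with the floor (271 and 392 at an unadjusted p under 0.05), and 224 to 232 and 253 to 275 with 1 library left out. The cause of these shifts was not tested.

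The number of DM-silent regions (1023) was 811 when peaks up to 500 bases apart were merged, 1024 with the 8 HSPC libraries alone merged, 881 when at least 25% of a region had to be covered, and 960 with each library cut to its 21704 widest peaks. Of the 1023, 844, 1021, 693 and 776 were shared. It was 1039 to 1827 with 1 library left out, the most without Flt3-ITD replicate 1 (1827) and without DM replicate 1 (1761). Those acetylated in both neutrophil libraries (115) were then 116 to 494, the 494 being among the 1761.

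Of 79 calls at named regions, 40 held under every alternative and 60 with the floor. The sign turned at 2: H3K4me1 at Trib2 was -0.39 with 3 kb on each side (0.22 reported), and at one Prkar2b region 0.12 for the region alone (-0.08 reported). The labels do not say whether replicate numbers pair the libraries. Correlations of same-numbered deviations were -0.0691 to 0.015 for H3K4me1 and -0.191 to 0.0827 for H3K4me3. Coverage was often equal between replicates, so these values cannot exclude pairing. With the replicate block the falls were 193 for H3K4me1 and 210 for H3K4me3 in DM, 13 in Npm1c, 20 in Flt3-ITD, and 234 and 268 in neutrophils. Peak lists hold no heights, so a loss of mark that leaves a peak in place is not seen.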

Other observations

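Other groups of DM-silent regions lay near genes outside the erythroid list. With gaps of up to 10 kb, 228 of the regions formed 106 groups, 12 of them of 3 or more. At Gse1, which encodes a coiled-coil protein, 4 regions spanned 15.5 kb and a further one lay elsewhere in the gene. Of these 5, the region chr8:120382119-120383879 was acetylated over 1.17 and 1.28 kb in WT, 1.76 and 1.08 kb in Npm1c, and 0.249 and 1.04 kb in Flt3-ITD. It had 1 kb of H3K4me3 in each of the 6 libraries and none in DM, and 1 kb of H3K4me1 in all 8 HSPC libraries.

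Ugcg, the glucosylceramide synthase gene, had 5 DM-silent regions. The one at chr4:59192281-59195666 was broad in Npm1c, at 3.39 and 2.77 kb of H3K27ac, and 0.929 and 0.2 kb in WT and 0.29 and 0.416 kb in Flt3-ITD. Fcnb, the ficolin B gene of myeloid progenitors, had 3 regions within 6.44 kb. At chr2:28063087-28064643 its H3K4me1 was 1.4 and 1.57 kb in WT, 1.39 and 1.57 kb in Npm1c, 1 and 1.28 kb in Flt3-ITD, and 0.28 and 0 kb in DM, a difference of -1.57 ± 0.18 (SE, limma adjusted p = 0.00298) that was not called with 3 kb on each side. Klf3, a Krüppel-like repressor expressed in erythroid cells, had 3 regions 111 kb or more upstream. At chr5:64691458-64692879 H3K4me1 was 1.63 to 2.5 kb in the 6 libraries and 0.477 and 0 kb in DM (-1.9 ± 0.27 SE, limma adjusted p = 0.00906), a call also lost with 3 kb on each side.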
